A study of Mus musculus with 36 samples.

Results

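Chemokine ligands are small secreted proteins that draw white blood cells out of the blood and into tissue. The 10 described here are the neutrophil attractants Cxcl1, Cxcl2 and Cxcl5, the monocyte and macrophage ligands Ccl2 and Ccl6, Ccl20, the lymphocyte attractants Cxcl9, Cxcl10 and Ccl5, and the B cell attractant Cxcl13. They were taken by name from the 29546 genes of the table, not by a rule on their values, although earlier results of these data were known. All 10 were found under 1 Ensembl ID each. All 10 also passed the filter on low values (at least 10 in at least 4 of 36 libraries), as did 12596 genes. Cxcl2 and Ccl20 reached 10 in 0 of the 12 control libraries, Cxcl5 in 1, and Ccl20 in exactly 4 libraries in all, so these genes passed only, or almost only, through groups in which they were high.

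A chemokine binds a G-protein-coupled receptor on a leukocyte and guides the cell up a concentration gradient. CXC ligands with an ELR sequence at the start, such as Cxcl1, Cxcl2 and Cxcl5, act on Cxcr2 of neutrophils, and Ccl2 acts on Ccr2 of inflammatory monocytes. Cxcl9 and Cxcl10 are induced by interferon and act on Cxcr3 of T and NK cells, and Cxcl13 acts on Cxcr5 of B cells. In the cholestatic liver hepatocytes, bile duct cells, macrophages and stellate cells are all known to make chemokines, and bulk tissue does not tell them apart.

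The study induced cholestasis, a failure of bile flow, in C57BL/6 mice and sequenced the 3' ends of liver messenger RNA. There were 9 groups of 4 libraries. The bile duct was tied off surgically in BDL7 (day 7) and BDL28 (day 28), and SHAM mice had sham surgery. Mice of DDC7 (day 7) and DDC28 (day 28) ate 0.1% by weight of the porphyrin-inducing compound 3,5-diethoxycarbonyl-1,4-dihydrocollidine, DDC, while CTLD mice ate a control diet. Mice of CsA7 (day 7) and CsA28 (day 28) received cyclosporin A, a calcineurin inhibitor that can slow bile secretion, by gavage at 15 mg/kg in olive oil, and VEHICLE mice received the oil. The sample labels name no day for the controls, so the same 4 control libraries served both days of a model, and the 2 comparisons of a model are not independent. The labels name neither sex nor age.

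The sequence ahead of a gene's start bears on 2 inputs that chemokine genes are known to respond to, NF-kappa-B and interferon. Windows of 250 bases before the start were present in RefSeq (GRCm38.p6) for 7 of the 10 genes: Cxcl1, Cxcl2, Cxcl9, Cxcl10, Cxcl13, Ccl20 and Ccl6. They were searched on both strands for a kappa-B-like run of 10 bases, GGGA and TTCC with 2 bases of any kind between them, and for a run like the interferon-stimulated response element, GAAA and GAAA with 2 bases of any kind between them. Cxcl1, Cxcl2 and Cxcl10 held the first and Cxcl10 held the second, and their windows, all on chromosome 5, are shown because they hold these matches. Capitals mark the matches, and each window reads 5' to 3' on the strand of its gene.
Cxcl1: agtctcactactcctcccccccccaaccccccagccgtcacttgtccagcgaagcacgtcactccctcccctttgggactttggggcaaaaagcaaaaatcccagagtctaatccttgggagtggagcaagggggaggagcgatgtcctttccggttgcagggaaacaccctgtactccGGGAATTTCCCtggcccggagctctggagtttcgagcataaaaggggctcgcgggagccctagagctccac
Cxcl2: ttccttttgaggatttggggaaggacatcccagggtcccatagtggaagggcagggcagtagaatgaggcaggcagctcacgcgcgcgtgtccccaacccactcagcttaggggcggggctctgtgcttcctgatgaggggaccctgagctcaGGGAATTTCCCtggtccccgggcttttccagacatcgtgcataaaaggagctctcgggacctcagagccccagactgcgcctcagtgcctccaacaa
Cxcl10: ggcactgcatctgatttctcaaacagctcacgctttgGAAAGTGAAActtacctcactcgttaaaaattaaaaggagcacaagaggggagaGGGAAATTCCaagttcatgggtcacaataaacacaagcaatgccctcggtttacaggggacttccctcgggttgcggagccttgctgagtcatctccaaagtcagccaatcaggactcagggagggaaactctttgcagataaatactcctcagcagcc

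The Cxcl1 window is chr5:90890995-90891244 on the plus strand, and its match starts 71 bases before the gene's start. The Cxcl2 window is chr5:90903649-90903898 on the plus strand, with its match starting at 97 bases. In both genes the capitals hold 2 matches that overlap, 1 on each strand, offset by 1 base. The Cxcl10 window is chr5:92348890-92349139 on the minus strand, with the kappa-B-like match starting at 159 bases and the interferon-type match at 213 bases before the start. Of 32851 windows of the same length in the table, 1.208% held the kappa-B-like run and 2.977% the interferon-type run. A match is a run of letters and not a measured binding site.

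Values are read counts that the authors scaled between libraries, written here as normalized counts. Recovered reads ran from 2081093 to 3770267 per library, so 1 read was worth 0.708 to 1.62 normalized counts, and a gene's counts over all 36 libraries ran from 120 for Ccl20 to 12109 for Ccl6. The counting is at 3' ends, and levels are compared between groups, not between genes. Summed hepatocyte markers were at least 37890 normalized counts in every library, as the tissue label implies. Some libraries stood apart. VEHICLE replicates 1 and 2 had summed neutrophil markers of 319.4 and 123.1 against 9.85 and 6.705 in replicates 3 and 4. VEHICLE replicate 1 held its group's highest value for Cxcl1, Cxcl2, Cxcl5, Cxcl9, Cxcl10, Ccl2 and Ccl6. BDL28 replicate 1 had summed chemokine receptors of 676.9 against 122.2 to 239 in the other 3 libraries of its group, and summed monocyte and macrophage markers of 2581 against 891.2 to 1446. BDL7 replicate 1 had a summed interferon gamma response, in which the gene Iigp1 weighs heavily, of 9951 against 2912 to 4282 in the rest of its group.

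Ligation and the DDC diet raised most of the neutrophil and monocyte attractants, while the interferon-induced pair and Cxcl13 followed other courses. Among the 10 ligands limma called 5 higher and 0 lower in BDL7, where 20.2% of all genes tested were called higher and 18.5% lower. In BDL28 it called 3 higher and 2 lower, against 24.1% and 22.7% of all genes. In DDC7 it called 7 higher and 0 lower, against 24.7% and 22.1%. In DDC28 it called 6 higher and 2 lower, against 27.9% and 24.7%. Cyclosporin A gave 0 calls in either direction at either day, against 1.88% of genes higher and 2.14% lower in CsA7, and 0.00794% and 0.0159% in CsA28. The median log2 fold change of the 10 ligands was 2.12 in BDL7, 1.40 in BDL28, 2.30 in DDC7 and 2.28 in DDC28, beside medians of 0.011, 0.034, 0.040 and 0.037 over all genes. Cxcl2 and Cxcl5 were among the calls higher in BDL7, BDL28, DDC7 and DDC28, and Ccl20 in BDL7, DDC7 and DDC28. These genes passed the filter only, or almost only, through groups in which they were high. That favours rises over falls in the counts and medians given here. A call is a Benjamini-Hochberg adjusted p under 0.05 over all 12596 genes. Every fold change is on the log2(normalized count + 1) scale, which understates the change of low genes.

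**Figure D1:**
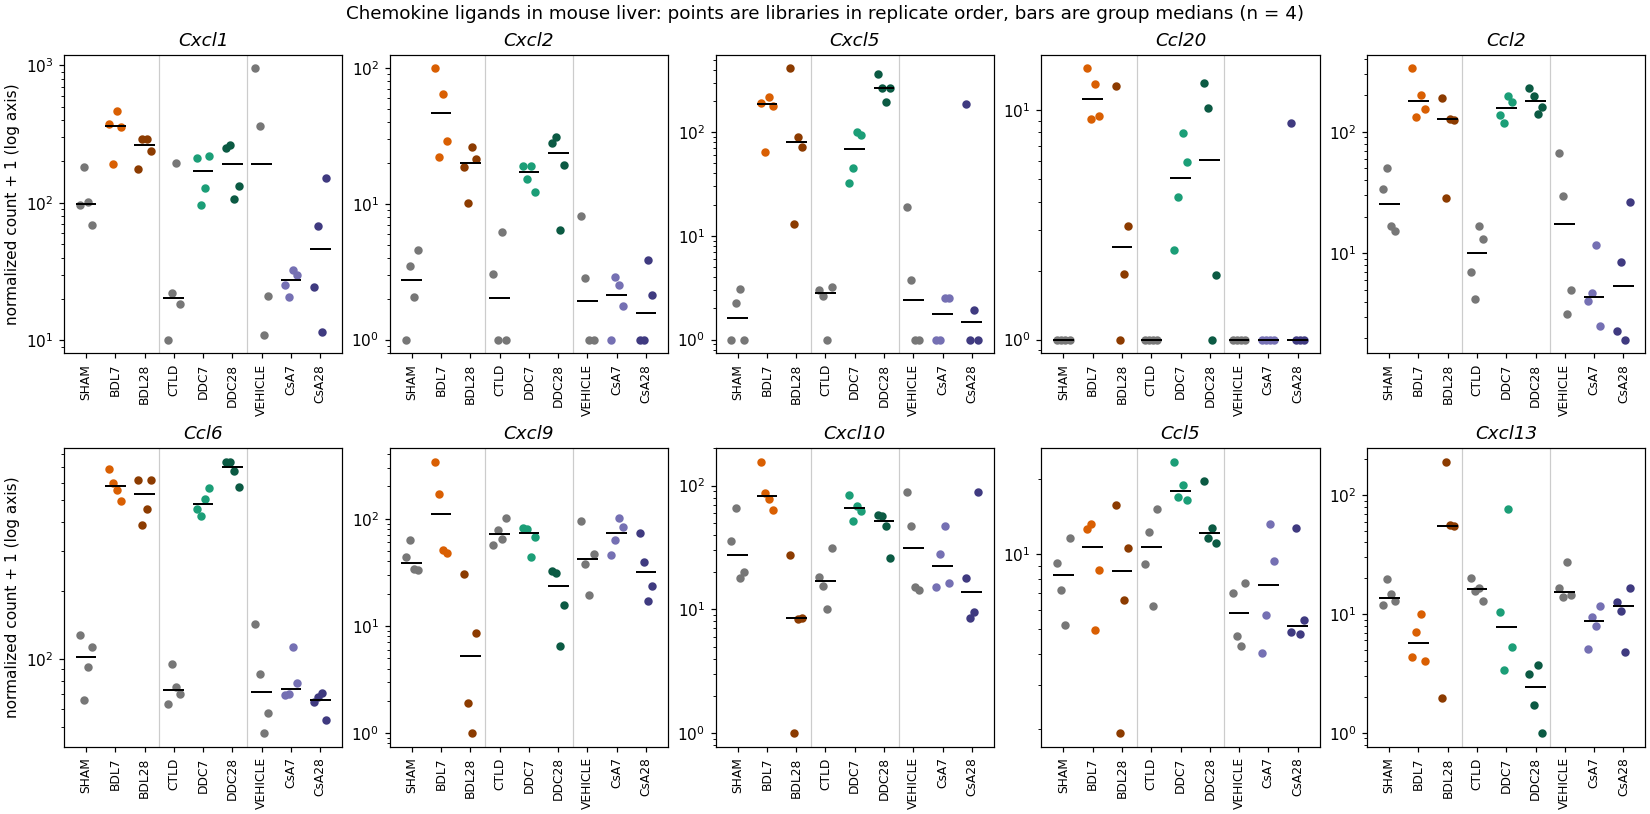
Normalized count + 1 on a log axis (y) of the 10 chemokine ligands in each of the 9 groups (x); each point is 1 library, in replicate order, and the black bar is the median of the 4 libraries. Cxcl2, Cxcl5, Ccl2 and Ccl6 sit above their controls in most or all ligation and DDC libraries, Cxcl9 and Cxcl10 drop in BDL28, and Cxcl1 is widely spread in VEHICLE.

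Cxcl5, a neutrophil attractant that epithelial cells make, had the largest fitted change of the 10 in BDL7, BDL28, DDC7 and DDC28. It measured 0, 1.24, 2.10 and 0 normalized counts in SHAM replicates 1 to 4, 190.5, 64.1, 216 and 179 in BDL7 and 410.3, 11.9, 89.1 and 70.7 in BDL28. The SHAM libraries held 3 reads in all, and every ligated library was above every sham library. The ratio of group means was 194 in BDL7 (95% interval 62.5 to 891) and 174 in BDL28 (54.3 to 776), intervals that cover counting error only. BDL28 replicate 1 held 417 of the 592 reads of its group, and without it the ratio in BDL28 was 68.5. limma gave a log2 fold change (± SE) of 6.52 ± 1.16 with adjusted p = 5.73e-05 in BDL7 and 5.56 ± 1.16 with adjusted p = 0.000279 in BDL28. In the diet model it measured 2.03, 1.62, 0 and 2.18 in CTLD, 31.2, 43.9, 99.7 and 92.1 in DDC7 and 364, 263, 195 and 265 in DDC28. The DDC28 libraries were all above the DDC7 libraries, which were all above the controls. Its log2 fold change was 4.76 ± 1.16 with adjusted p = 0.00139 in DDC7 and 6.89 ± 1.16 with adjusted p = 1.51e-05 in DDC28. The calls against control were kept under each of the 11 other settings and each of the 8 single libraries left out per contrast.

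Cxcl2, which acts on the same neutrophil receptor, was near 0 in the controls and rose in both models at both days. It measured 0, 2.48, 1.05 and 3.56 in SHAM, 98.6, 21.4, 63.8 and 28.2 in BDL7 and 17.7, 9.19, 25.1 and 20.4 in BDL28, and both ligated groups lay wholly above sham. Its log2 fold change was 4.25 ± 0.65 with adjusted p = 2.76e-06 in BDL7 and 2.92 ± 0.65 with adjusted p = 0.000369 in BDL28. In CTLD it measured 2.03, 0, 5.22 and 0, in DDC7 18.2, 14.4, 17.9 and 11.3 and in DDC28 27.2, 29.9, 5.43 and 18.4. Each DDC library was above each control diet library, the nearest being DDC28 replicate 3 at 5.4 and CTLD replicate 3 at 5.2. The log2 fold change was 2.96 ± 0.65 with adjusted p = 0.000324 in DDC7 and 3.12 ± 0.65 with adjusted p = 0.000128 in DDC28. All 4 calls were kept under every alternative tried.

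Cxcl1, the third neutrophil attractant, was already expressed in control livers and varied widely among them. It measured 94.95, 182, 99.9 and 67.6 in SHAM, 373, 189, 461 and 354 in BDL7 and 176, 289, 293 and 237 in BDL28. All BDL7 libraries were above all SHAM libraries, although BDL7 replicate 2 and SHAM replicate 2 nearly met, and BDL28 replicate 1 fell below SHAM replicate 2. The log2 fold changes of 1.65 ± 0.98 with adjusted p = 0.196 in BDL7 and 1.22 ± 0.98 with adjusted p = 0.322 in BDL28 did not pass the test. A fit on the 8 libraries of each contrast alone gave the same values with adjusted p = 0.0153 and adjusted p = 0.00648.

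In CTLD, Cxcl1 measured 9.12, 21.05, 194 and 17.5, in DDC7 212, 95.1, 127 and 219.5 and in DDC28 250.2, 264, 105 and 131. CTLD replicate 3 overlapped both DDC groups and the other 3 controls lay below them. Cxcl1 passed in DDC7 (2.37 ± 0.98 with adjusted p = 0.0491) and in DDC28 (2.54 ± 0.98 with adjusted p = 0.0313). The DDC7 call was lost under 7 of 11 settings and when any 1 library was left out other than CTLD replicate 3 (adjusted p = 0.0524 to adjusted p = 0.155). The DDC28 call was lost under 4 settings and without CTLD replicate 1, 2 or 4 or DDC28 replicate 1 or 2 (adjusted p = 0.0673 to adjusted p = 0.11).

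Ccl20, which attracts cells bearing Ccr6, such as Th17 cells and immature dendritic cells, had 0 reads in all 4 libraries of SHAM, of CTLD, of VEHICLE and of CsA7. It measured 14.2, 8.14, 11.96 and 8.40 in BDL7, 11.8, 0, 0.929 and 2.14 in BDL28, 1.45, 3.20, 6.98 and 4.96 in DDC7 and 12.2, 9.26, 0 and 0.918 in DDC28. All BDL7 and DDC7 libraries were above 0, whereas 1 of 4 in BDL28 and 1 of 4 in DDC28 was at 0. Against a floor of 3 counts over the control group it was at least 11.7-fold higher in BDL7 and at least 4.4-fold in DDC7. The bound in DDC28 was 5.93-fold with all 4 libraries. It rested on replicates 1 and 2, with 17 and 13 of the 31 reads, against 0 and 1 in replicates 3 and 4. The bound in BDL28 was 4.09-fold with all 4 libraries, but replicate 1 held 12 of the 15 reads of that group. Without it the BDL28 mean was 1.02 against a floor of 0.91, which gives no fold. limma called it in BDL7 (adjusted p = 0.000204), DDC7 (adjusted p = 0.0117) and DDC28 (adjusted p = 0.0203), and gave adjusted p = 0.0751 in BDL28. The BDL7 call was kept under every alternative, the DDC7 call was lost with quantile normalization (adjusted p = 0.118) and edgeR (adjusted p = 0.0584), and the DDC28 call was lost with quantile normalization, in a fit on the 8 libraries alone and without DDC28 replicate 1 or 2 (adjusted p between 0.0955 and 0.116). Without BDL28 replicate 2 the BDL28 adjusted p was 0.0254, and DESeq2 on all 4 gave adjusted p = 0.0391.

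Ccl2, the main attractant of inflammatory monocytes, rose in both diet groups and in BDL7. It measured 33.03, 49.6, 15.8 and 14.2 in SHAM, 331, 131, 201 and 153 in BDL7 and 189.9, 27.6, 127 and 124 in BDL28. The BDL7 libraries were all above sham, and in BDL28 replicate 2 alone lay within the sham range. Its log2 fold change was 2.90 ± 0.80 with adjusted p = 0.00495 in BDL7. In BDL28 it was 1.91 ± 0.80 with adjusted p = 0.0522, which missed the threshold. The BDL28 difference passed with edgeR (adjusted p = 0.00591), DESeq2 (adjusted p = 0.0159), total-count scaling (adjusted p = 0.0251) without SHAM replicate 2 (adjusted p = 0.0388) and without BDL28 replicate 2 (adjusted p = 0.017). In CTLD it measured 6.08, 3.24, 15.7 and 12, in DDC7 136, 118, 196 and 176 and in DDC28 229, 195, 138 and 159.8. Neither diet group met the controls, and the log2 fold changes were 4.11 ± 0.80 with adjusted p = 0.000134 in DDC7 and 4.31 ± 0.80 with adjusted p = 5.49e-05 in DDC28.

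Ccl6, a ligand of Ccr1 that mouse macrophages and other myeloid cells make, had the smallest standard error of the 10. It measured 127, 64.5, 90.5 and 111 in SHAM, 691, 599, 556 and 494 in BDL7 and 615, 389.6, 456 and 616 in BDL28. In the diet model it measured 61.8, 93.9, 74.4 and 68.7 in CTLD, 456, 425, 508 and 567 in DDC7 and 739, 736, 671 and 571 in DDC28. Each treated library was at least 389.6 and each control library of these models at most 126.6. The log2 fold changes were 2.59 ± 0.24 with adjusted p = 5.84e-10 in BDL7, 2.41 ± 0.24 with adjusted p = 9.31e-10 in BDL28, 2.703 ± 0.24 with adjusted p = 1.43e-10 in DDC7 and 3.18 ± 0.24 with adjusted p = 2.08e-12 in DDC28. The 4 DDC28 libraries were all above the 4 DDC7 libraries, with a log2 difference of 0.47 ± 0.24 with adjusted p = 0.27 that did not pass.

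Cxcl9, an interferon gamma-induced attractant of T cells, fell at day 28 in both injury models. It measured 42.7, 62.1, 32.6 and 32.02 in SHAM and 338, 168, 49.9 and 46.6 in BDL7, where replicates 1 and 2 were high and replicates 3 and 4 were within the sham range. In BDL28 it measured 29.5, 0.919, 0 and 7.50, all below sham. The log2 fold change was 1.37 ± 0.76 with adjusted p = 0.157 in BDL7, which was not called, and -3.15 ± 0.76 with adjusted p = 0.00116 in BDL28, a call that every alternative kept. The count tests called the BDL7 difference higher (edgeR adjusted p = 0.0162, DESeq2 adjusted p = 0.0254). In CTLD it measured 55.8, 77.7, 63.9 and 100.4, in DDC7 80.6, 79.1, 42.9 and 65.9 and in DDC28 31.5, 29.9, 5.43 and 14.7. The DDC7 libraries overlapped the controls (-0.15 ± 0.76 with adjusted p = 0.887), and the DDC28 libraries lay below them (-2.04 ± 0.76 with adjusted p = 0.0246). The DDC28 call was lost with total-count scaling, with no filter on low values and without CTLD replicate 4, DDC28 replicate 3 or DDC28 replicate 4 (adjusted p between 0.0506 and 0.107).

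Cxcl10, the second interferon-induced ligand and the gene whose window holds both runs shown above, fell in BDL28 and was higher than control in DDC7. It measured 34.4, 64.5, 16.8 and 18.97 in SHAM, 155, 86.5, 76.8 and 62.6 in BDL7 and 26.6, 0, 7.43 and 7.50 in BDL28. In BDL7, 3 of 4 libraries were above every sham library, and in BDL28, 3 of 4 were below every sham library. The log2 fold change was 1.59 ± 0.76 with adjusted p = 0.0995 in BDL7, which was not called, and -2.18 ± 0.76 with adjusted p = 0.0195 in BDL28. The BDL7 difference passed with total-count scaling (adjusted p = 0.0444), a pseudocount of 5 (adjusted p = 0.0469) and in a fit on the 8 libraries alone (adjusted p = 0.0361). The BDL28 call was lost with edgeR (adjusted p = 0.0846), in a fit on the 8 libraries alone (adjusted p = 0.0985), and without SHAM replicate 2 or BDL28 replicate 2 (adjusted p between 0.0726 and 0.141). In CTLD it measured 17.2, 14.6, 9.13 and 30.6, in DDC7 83.5, 50.3, 67.8 and 61.6 and in DDC28 57.4, 55.5, 46.1 and 24.8. The DDC7 libraries were all above the controls (1.92 ± 0.76 with adjusted p = 0.0382), a call lost when any 1 library was left out other than CTLD replicate 4 and DDC7 replicate 2 (adjusted p between 0.0588 and 0.106). It was also lost with a pseudocount of 0.5 (adjusted p = 0.0555) and with no filter on low values (adjusted p = 0.0821). The DDC28 difference was 1.37 ± 0.76 with adjusted p = 0.131 and was not called, while the fit on its 8 libraries alone gave adjusted p = 0.00457.

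Ccl5, an attractant made by T cells, NK cells and platelets, passed in no comparison. It measured 8.11, 11.3, 5.22 and 14.2 in CTLD, 22.5, 15.98, 17.9 and 15.6 in DDC7 and 18.6, 10.7, 11.8 and 10.1 in DDC28. The DDC7 libraries were all above the controls, with a log2 fold change of 0.89 ± 0.46 with adjusted p = 0.113. That difference passed with total-count scaling (adjusted p = 0.0319) and in a fit on the 8 libraries alone (adjusted p = 0.027). In SHAM, BDL7 and BDL28 the values ran from 0.92 to 14.8 and overlapped (0.21 ± 0.46 with adjusted p = 0.767 in BDL7, -0.23 ± 0.46 with adjusted p = 0.708 in BDL28).

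Cxcl13, which draws B cells into follicles, moved apart in the 2 models. It measured 11.01, 18.6, 13.7 and 11.9 in SHAM, 3.34, 6.10, 8.97 and 3.05 in BDL7 and 0.984, 189, 54.8 and 53.6 in BDL28. The BDL7 libraries all lay below sham, and in BDL28 replicates 2, 3 and 4 lay above sham while replicate 1 was at 0.98. The log2 fold change was -1.29 ± 0.87 with adjusted p = 0.255 in BDL7 and 1.17 ± 0.87 with adjusted p = 0.277 in BDL28, neither called. A fit on the 8 libraries alone called the BDL7 value (adjusted p = 0.00959). Without BDL28 replicate 1 the BDL28 value was 2.52 with adjusted p = 0.00189, and edgeR (adjusted p = 0.0116) and DESeq2 (adjusted p = 0.00984) called it on all 4 libraries. In CTLD it measured 19.3, 14.6, 15.7 and 12, in DDC7 9.44, 2.40, 75.7 and 4.25 and in DDC28 2.15, 0.712, 2.71 and 0. DDC7 replicate 3 stood alone above the controls, and the whole DDC28 group lay below them. The DDC7 difference was -0.56 ± 0.87 with adjusted p = 0.622 and was not called, while the DDC28 fall was -2.93 ± 0.87 with adjusted p = 0.0054 and was kept under every alternative.

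**Figure D2:**
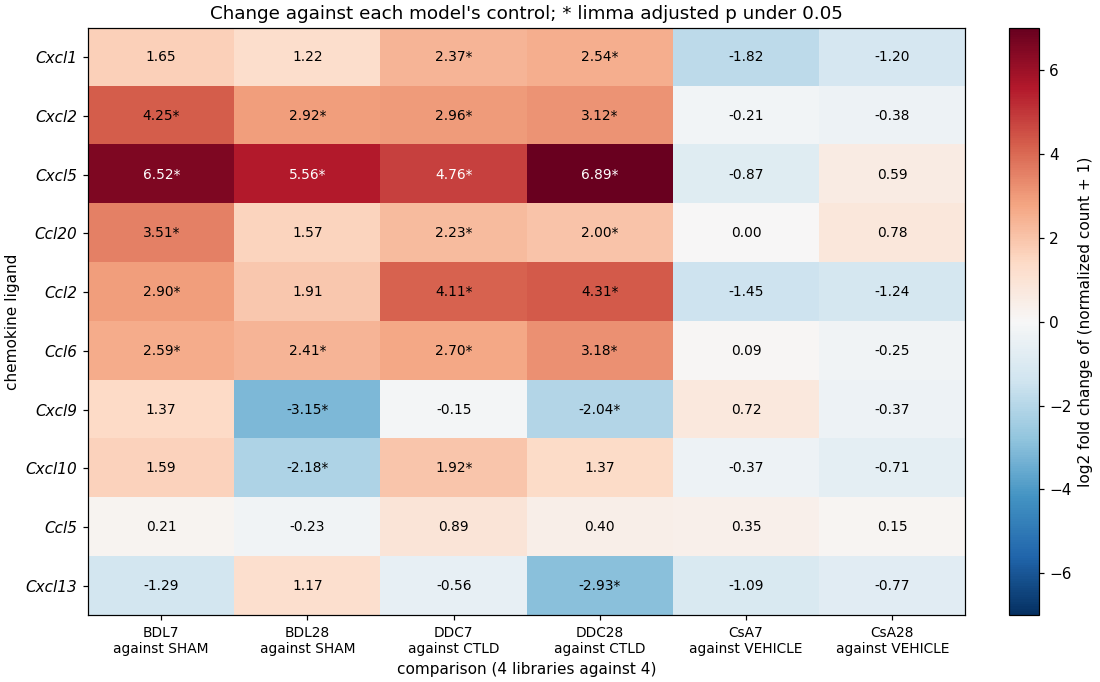
Log2 fold change (colour and number) of each chemokine ligand (rows) in the 6 comparisons of a treated group with its control (columns, 4 libraries against 4); an asterisk marks a limma adjusted p under 0.05. The neutrophil and monocyte attractants fill the upper left with positive values up to 6.89 for Cxcl5 in DDC28, and the 2 cyclosporin A columns hold no asterisk.

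The course from day 7 to day 28 was tested directly. In ligation limma called 1 of the 10 ligands higher and 3 lower at day 28, where 14% of genes tested were called higher and 16.7% lower. Cxcl9 fell by 4.52 on the log2 scale (SE 0.76, adjusted p = 5.63e-05) and Cxcl10 fell by 3.76 (SE 0.76, adjusted p = 0.000428). For both genes every BDL28 library was below every BDL7 library, and both calls were kept under every alternative tried. Ccl20 fell by 1.94 (SE 0.73, adjusted p = 0.0398), and Cxcl13 rose by 2.46 (SE 0.87, adjusted p = 0.0305). The Ccl20 call was lost under 5 of 11 settings and when any 1 library was left out other than BDL28 replicate 1 (adjusted p between 0.0547 and 0.192). The Cxcl13 call was lost under 3 settings and without BDL7 replicate 1 or 4 or BDL28 replicate 2, 3 or 4 (adjusted p between 0.0752 and 0.181), and with any 1 of these 5 left out the count of called ligands was 2. The neutrophil and monocyte attractants gave no call between the days (Cxcl1 -0.43, Cxcl2 -1.33, Cxcl5 -0.96, Ccl2 -0.99 and Ccl6 -0.19 on the log2 scale), although Cxcl2 was called lower by edgeR (adjusted p = 0.0121), DESeq2 (adjusted p = 0.0201) and with a pseudocount of 5 (adjusted p = 0.0116).

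In the DDC diet limma called 0 of the 10 ligands between the days, against 2.07% of genes higher and 3.63% lower. Cxcl9 (-1.89) and Cxcl13 (-2.37) had an unadjusted p under 0.05, and edgeR and DESeq2 each called 1 ligand, Cxcl13 (adjusted p = 0.035 and adjusted p = 0.00175). A fit on the 8 DDC libraries alone called 2, Cxcl5 (adjusted p = 0.0219) and Ccl6 (adjusted p = 0.0147), both higher at day 28. Cyclosporin A gave 0 limma calls and 0 unadjusted p under 0.05 between the days, against 1.37% of genes higher and 1.07% lower, and DESeq2 called Cxcl5 (adjusted p = 0.00862), whose reads in CsA28 lay almost wholly in replicate 1.

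**Figure D3:**
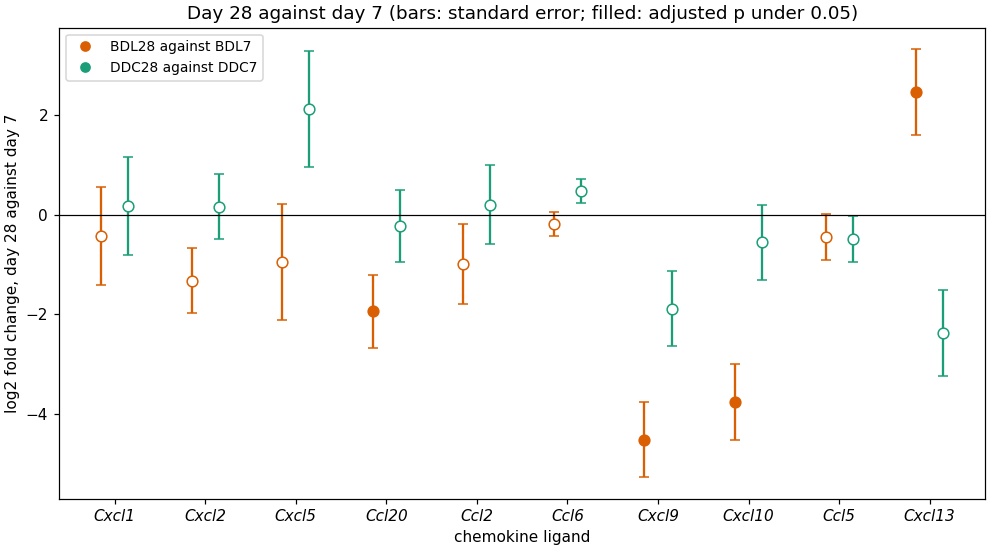
Log2 fold change at day 28 against day 7 (y) of each chemokine ligand (x) in ligation (orange) and the DDC diet (green); bars are the standard error, and filled points have a limma adjusted p under 0.05. Cxcl9 and Cxcl10 are the lowest ligation points at -4.52 and -3.76, and Cxcl13 is the highest at 2.46 while its DDC point is at -2.37.

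Each model's change was then set against the other's, with each model's own control. At day 7 the ligation and DDC effects differed for 0 of the 10 ligands by limma, with 0 at an unadjusted p under 0.05 and 0 by edgeR or DESeq2, where 8.46% of all genes differed. At day 28 they differed for 2, against 10.3% of genes. The Cxcl10 effect was lower in ligation by a log2 difference of -3.54 ± 1.07 with adjusted p = 0.0336, and the Cxcl13 effect was higher by 4.11 ± 1.22 with adjusted p = 0.0308. The Cxcl10 call was lost under 3 of 11 settings and without SHAM replicate 1 or 2, BDL28 replicate 2, CTLD replicate 2 or 3, or DDC28 replicate 1 or 2 (adjusted p between 0.053 and 0.0789). The Cxcl13 call was lost under 3 settings and without BDL28 replicate 2, 3 or 4, CTLD replicate 1, or DDC28 replicate 2 or 4 (adjusted p between 0.051 and 0.0741). Without BDL28 replicate 2 or DDC28 replicate 2, 0 ligands were called. The Ccl2 difference of -2.40 ± 1.14 with adjusted p = 0.177 did not pass, and a fit on the 24 ligation and DDC libraries, chosen after seeing the data, gave adjusted p = 0.0485. The change from day 7 to day 28 differed between the models for 1 ligand, against 1.48% of genes, namely Cxcl13 (4.83 ± 1.22 with adjusted p = 0.044). That call was lost under 4 of 11 settings and when any 1 library was left out other than BDL7 replicate 3, BDL28 replicate 1, DDC7 replicate 2 and DDC28 replicate 3 (adjusted p between 0.0522 and 0.111). Without BDL28 replicate 1 there were 3 calls, Cxcl13 together with Cxcl9 (adjusted p = 0.0151) and Cxcl10 (adjusted p = 0.0143).

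Cyclosporin A livers gave no call, and VEHICLE varied widely for Cxcl1 and Ccl2. Cxcl1 measured 948, 361, 9.85 and 20.1 in VEHICLE, 24.3, 19.7, 31.4 and 28.9 in CsA7 and 23.3, 66.5, 10.5 and 151 in CsA28. VEHICLE replicates 1 and 2 were above every CsA7 library, replicate 3 was below all of them and replicate 4 lay within their range. The log2 fold change was -1.82 ± 0.98 with adjusted p = 0.345 in CsA7 and -1.20 ± 0.98 with adjusted p = 0.76 in CsA28. edgeR (adjusted p = 0.021) and DESeq2 (adjusted p = 0.00148) called Cxcl1 lower in CsA7. Ccl2 measured 65.8, 28.7, 2.19 and 4.02 in VEHICLE, 3.04, 3.76, 10.7 and 1.52 in CsA7 and 1.29, 7.51, 0.951 and 25.7 in CsA28, with the same 2 VEHICLE libraries high. DESeq2 called it lower in CsA7 (adjusted p = 0.0492), which limma did not (-1.45 ± 0.80 with adjusted p = 0.358). The summed neutrophil markers were high in the same 2 VEHICLE libraries, and their part in the Cxcl1 and Ccl2 values was not tested.

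The other 8 ligands lay in overlapping ranges in the cyclosporin A groups and VEHICLE, except that the CsA7 libraries of Cxcl13 (4.05, 8.46, 6.90 and 10.7) were all below VEHICLE (15.6, 12.96, 26.3 and 13.4), with a log2 fold change of -1.09 ± 0.87 with adjusted p = 0.571. Cxcl5 in CsA28 measured 188, 0, 0.951 and 0, so replicate 1 carried nearly all of it. Among the 3 control groups an F test called 0 of the 10 ligands (0 at an unadjusted p under 0.05, and 0 by edgeR or DESeq2), against 19.4% of all genes.

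Other genes of the chemokine system were read from lists chosen with earlier results of these data known, and are given as counts. Of 26 other chemokine ligands 12 could be tested. Of these 8 rose and 2 fell in BDL7 (20.2% and 18.5% of all genes), and 5 and 2 in BDL28 (24.1% and 22.7%). In DDC7 it was 7 and 2 (24.7% and 22.1%), and in DDC28 8 and 4 (27.9% and 24.7%). Cxcl14, a ligand of epithelial and stromal cells, went from 9.57 ± 3.66 (SD, n = 4) in SHAM to 93.3 ± 32.9 in BDL7 and 125 ± 54.0 in BDL28, and from 5.80 ± 2.00 in CTLD to 66.6 ± 9.66 in DDC28. Ccl7, a second Ccr2 ligand, went from 0.607 ± 0.713 in SHAM to 14.5 ± 6.74 in BDL7. Near 0 in SHAM, it could not have passed the filter through that group. Pf4, a platelet chemokine, rose from 11.3 ± 4.31 in SHAM to 57.1 ± 4.73 in BDL28, and from 11.9 ± 5.47 in CTLD to 56.3 ± 7.99 in DDC28. Cxcl12, a ligand of Cxcr4, fell from 787 ± 110 in CTLD to 454 ± 61.3 in DDC7, and Ccl27a fell from 36.1 ± 9.16 to 7.71 ± 2.22 in DDC28. Cxcl11, the remaining interferon-induced Cxcr3 ligand, fell from 13.8 ± 1.23 in BDL7 to 4.65 ± 1.29 in BDL28 (adjusted p = 0.00407).

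Of 23 chemokine receptors 22 were in the table and 9 could be tested. In BDL7 7 rose and 0 fell (20.2% and 18.5% of all genes), and in BDL28 5 and 1 (24.1% and 22.7%). In DDC7 it was 5 and 0 (24.7% and 22.1%), and in DDC28 5 and 1 (27.9% and 24.7%). Ccr1, the receptor of Ccl6 and Ccl5, went from 0.263 ± 0.526 in SHAM to 20.5 ± 5.81 in BDL7 and 23.1 ± 10.9 in BDL28, and from 0 in all 4 CTLD libraries to 24.8 ± 5.29 in DDC28. Near 0 in the controls, it passed the filter only through groups in which it was high. Ccr2, the receptor of Ccl2, went from 15.1 ± 8.44 in SHAM to 184 ± 46.3 in BDL7 and from 11.7 ± 3.53 in CTLD to 128 ± 36.01 in DDC28. Between BDL7 and BDL28 Ccr2 fell to 80.7 ± 77.0 (adjusted p = 0.0201). Ackr4, a scavenging receptor, fell from 6.39 ± 3.37 in SHAM to 0.232 ± 0.464 in BDL28. The summed receptors were 122.2 in BDL28 replicate 2 and 676.9 in replicate 1, the library with the highest Cxcl5, Ccl2 and Ccl20 of its group.

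Adhesion and NF-kappa-B feedback genes such as Vcam1 and Tnfaip3 rose as well. They belong to a mixed list of 23 cytokines that induce chemokines, feedback genes and adhesion genes. Of its 16 tested genes 10 rose and 0 fell in BDL7 (20.2% and 18.5% of all genes), and 6 and 1 in BDL28 (24.1% and 22.7%). In DDC7 it was 9 and 0 (24.7% and 22.1%), and in DDC28 9 and 0 (27.9% and 24.7%). Vcam1, an adhesion molecule for leukocytes, went from 77.0 ± 21.1 in SHAM to 391 ± 79.4 in BDL7, and from 53.8 ± 12.01 in CTLD to 642 ± 39.1 in DDC28. Tnfaip3, an inhibitor of NF-kappa-B, went from 6.33 ± 2.67 in SHAM to 40.0 ± 10.3 in BDL7. Il1b, an inducer of neutrophil attractants, fell from 58.6 ± 18.7 in BDL7 to 23.4 ± 28.6 in BDL28 (adjusted p = 0.0163). Icam1, an adhesion molecule, was called lower in CsA7 (13.98 ± 3.89, log2 change -1.54, adjusted p = 0.0162) and in CsA28 (9.51 ± 2.28, -2.03, adjusted p = 0.0322) than in VEHICLE (58.1 ± 56.3). VEHICLE replicates 1 and 2, the libraries with high neutrophil markers, held 139 and 54.6 against 23 and 16.1 in replicates 3 and 4, and their sums over this list were 2936 and 1863 against 1019 and 1129. Without VEHICLE replicate 1 neither call held (adjusted p = 0.0977 in CsA7 and 0.162 in CsA28). They were also lost without VEHICLE replicate 2 (adjusted p = 0.0547 and 0.198), the first also without CsA7 replicate 1 and the second without CsA28 replicate 1, 2 or 3. The part of these libraries was not tested further.

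Interferon gamma response genes were mostly lower in BDL28 than in BDL7, beside Cxcl9, Cxcl10 and Cxcl11. Of 18 genes tested from 21, 6 rose and 0 fell in BDL7 (20.2% and 18.5% of all genes), and 1 rose and 9 fell in BDL28 (24.1% and 22.7%). In DDC7 it was 2 and 2 (24.7% and 22.1%), and in DDC28 4 and 7 (27.9% and 24.7%). Between the days of ligation 0 rose and 14 fell (14% and 16.7% of all genes), with a median log2 change of -1.59 against -0.02 over all genes. Iigp1, an interferon-induced GTPase, went from 2527 ± 169 in SHAM to 781 ± 257 in BDL28 and from 2202 ± 114 in CTLD to 1033 ± 288 in DDC28. Ifngr1, a chain of the interferon gamma receptor, rose against control in all 4 of these groups, from 120 ± 9.98 in SHAM to 217 ± 28.5 in BDL28 and from 77.8 ± 10 in CTLD to 237 ± 22.0 in DDC28. In BDL7 the summed list was 9951, 4282, 2912 and 3127 in replicates 1 to 4, so replicates 3 and 4 lay below every SHAM library. Iigp1 alone, at 2527 on average in SHAM, made up most of the SHAM sums. The sums therefore weigh it far above the other genes, whereas the calls count each gene equally. Without BDL7 replicate 1, 5 genes were called higher in BDL7 and 14 lower between the days of ligation. Without BDL7 replicate 3, 10 were called higher in BDL7. The 2 called lower in DDC7 became 1 without CTLD replicate 1, 2 or 4 or DDC7 replicate 2 or 4. Summed over the list, the 4 BDL28 libraries held 1135 to 2218, below the 3521 to 4154 of SHAM.

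Markers of the cells that these ligands draw in moved as well, and in bulk liver fewer cells of a type and less RNA per cell cannot be told apart. Of 14 neutrophil markers 6 could be tested, and 0 fell in these groups. In BDL7 5 rose (20.2% of all genes), in BDL28 5 (24.1%), in DDC7 5 (24.7%) and in DDC28 6 (27.9%). Of all genes 18.5%, 22.7%, 22.1% and 24.7% were called lower. The summed level of the 14 markers was 35.77 to 57.8 in SHAM, 218.7 to 368.4 in BDL7 and 217.6 to 505.7 in BDL28. It was 10.44 to 28.37 in CTLD, 117.5 to 224.2 in DDC7 and 387.1 to 413.3 in DDC28. With sums this low in SHAM and CTLD, the tested markers passed the filter largely through groups in which they were high, which favours rises over falls. All 14 monocyte and macrophage markers were tested, and 14 rose in BDL7, 8 in BDL28, 11 in DDC7 and 12 in DDC28. Here too 0 fell, beside the same shares of all genes. The sum of these markers was 510.2 to 620.6 in SHAM, 1787 to 2664 in BDL7 and 891.2 to 2581 in BDL28. Between the days of ligation 6 of the 14 fell (16.7% of all genes), or 10 without BDL28 replicate 1. The part of cell numbers in the chemokine values was not tested.

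Lymphocyte markers were low. Of 16 T and NK cell markers only Trbc2, a T cell receptor chain, reached the filter, and it fell from 10.4 ± 3.90 in SHAM to 3.90 ± 1.39 in BDL28 (adjusted p = 0.0424), a call lost without SHAM replicate 1, 2 or 3 or BDL28 replicate 2, 3 or 4. The summed T and NK markers were 34.39 to 50.5 in SHAM, 28.24 to 66 in BDL7 and 13.78 to 43.29 in BDL28. Of 8 B and plasma cell markers 3 could be tested. Ighm, the heavy chain of IgM, fell from 34.8 ± 15.6 in SHAM to 2.57 ± 2.97 in BDL28, while Jchain, a plasma cell gene, rose from 5.38 ± 3.91 to 15.0 ± 9.18 in BDL28 and from 5.26 ± 3.06 in CTLD to 21.6 ± 7.07 in DDC28. The BDL28 call of Jchain was lost without SHAM replicate 3, SHAM replicate 4 or BDL28 replicate 1. Cholangiocytes are a known source of Cxcl5 and Ccl20. Of 10 markers of these cells 9 rose in BDL7 (20.2% of all genes), 8 in BDL28 (24.1%), 5 in DDC7 (24.7%) and 8 in DDC28 (27.9%). None of the 10 fell, where 18.5%, 22.7%, 22.1% and 24.7% of all genes were called lower. The part of cholangiocytes in the Cxcl5 and Ccl20 values was not tested.

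**Figure D4:**
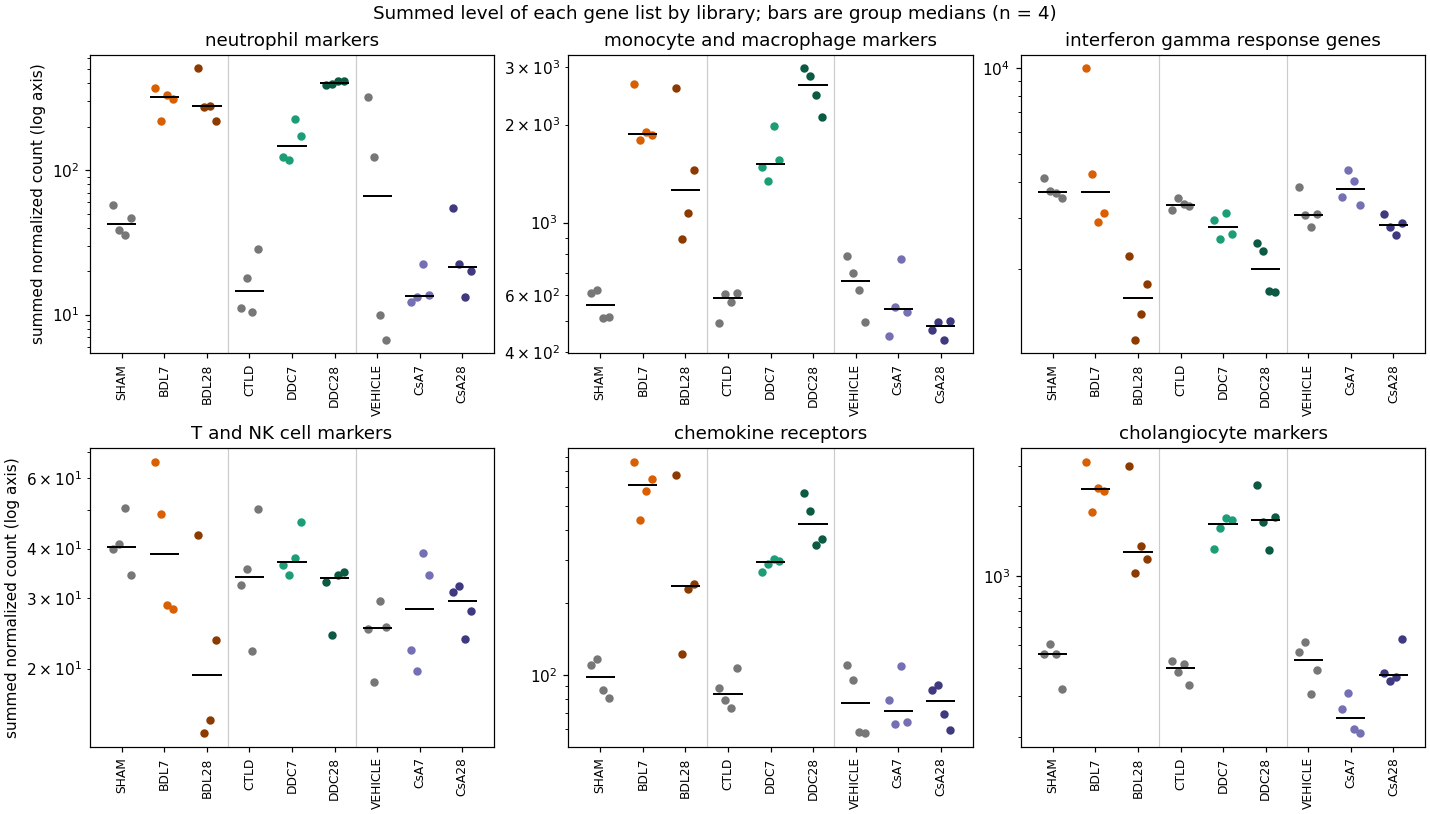
Summed normalized count on a log axis (y) of 6 gene lists in each of the 9 groups (x); each point is 1 library, in replicate order, and the black bar is the median of 4. Neutrophil markers sit at 217.6 or above in every ligation library and are split in VEHICLE (319.4 and 123.1 against 9.85 and 6.705). The interferon gamma list has its lowest median in BDL28, with libraries at 1135 to 2218, and Iigp1 alone made up most of its sum in SHAM.

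For each ligand the genes whose 9 group means followed it most closely were found among the 12596 genes tested. Predicted genes and the other ligands were left out of the search. Closeness was the root mean square difference on the log2 scale, each gene centred on its own mean. Cxcl1 was nearest to Retnlg (0.395), Mmp9 (0.396) and Emilin2 (0.397), of which Retnlg and Mmp9 stand in the neutrophil marker list. Ccl2 was nearest to S100a9 (0.541) and S100a8 (0.602), both neutrophil markers, and then to Plaur (0.611). Cxcl2 was nearest to Ccr2 (0.345), Mfge8 (0.360) and Spp1 (0.367). Ccr2 stands in the monocyte and macrophage marker list and Spp1 in the cholangiocyte marker list. Cxcl5 was nearest to Gipc2 (0.615), Chil3 (0.759) and Gabrp (0.813), and Ccl20 to Glipr2 (0.232), Eln (0.297) and Acta2 (0.312). Chil3 stands in the monocyte and macrophage marker list and Acta2 in the stellate cell and fibroblast marker list. Ccl6 was nearest to Nid1 (0.191), Tagln2 (0.204) and Myof (0.222). Ccl5, which varied by only 0.522 about its mean, was nearest to Snord118 (0.157), Spc24 (0.244) and Acyp2 (0.249). The nearest genes of Cxcl9 were Spc25 (0.528), Ifi27l2a (0.570) and Ifit1 (0.595), and those of Cxcl10 were Lgals1 (0.490), E2f1 (0.495) and Oasl1 (0.501). Cxcl13 had no close partner, with Zfp142 (0.697) nearest while Cxcl13 itself varied by 1.05 about its mean. These are likenesses over 9 group means that share their libraries, and they carry no test.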

How the data were processed

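Liver RNA of 36 mice was sequenced with the QuantSeq 3' kit and molecular identifiers, per the labels' protocols. Build GRCm39 and the tools STAR 2.7.9a, RSEM 1.3.1, UMI-tools 1.1.1, DESeq2 and Trim Galore stand in the submitters' processing notes, without settings. The deposited signal is a read count per gene, scaled by the authors with a single factor for each library. Values were whole multiples of 1 step per library (100% within a tolerance of 0.001), so whole reads were recovered (2081093 to 3770267 per library). Symbols came from GENCODE M21: 29121 of 29546 IDs had one.

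limma 3.58.1 (R 4.3.3; trend and robust) was fitted to log2(normalized count + 1) over 36 libraries and 9 groups, for 12596 genes with at least 10 in at least 4 libraries; tests were 2-sided. Counts were also tested with edgeR 4.0.16 and DESeq2 1.42.0 on recovered reads; other alternatives were scaling, pseudocount, filter, replicate block, libraries fitted and single libraries left out. The fits were tested on simulated data. Groups and replicate numbers came from the sample descriptions. Nothing in the labels says how replicates were housed or run, so p-values measure the spread between these samples. Equal replicate numbers of the descriptions did not pair libraries (0 of 4 pairs had a residual correlation over 0.1 in each contrast except BDL28 against BDL7, with 2). The sample titles number the same libraries differently, and pairing by those numbers was not tested. The 10 ligands and all lists were chosen with earlier results of these data known. All 10 ligands were named in each contrast, up to 4 genes of each other list by lowest adjusted p, and 3 genes of most like pattern; some of these are not reported here. A group at 0 reads was given a floor of 3 counts. Promoter windows are from RefSeq GRCm38.p6, another build than the table's, and were matched by symbol. The listed genes Ccr8, Il17a and Tf were not analysed here.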

Additional observations from a re-analysis of the deposited data

Results flagged for a closer look

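Each ligand's 4 libraries per group were searched for 1 library far from the other 3, which chance gives in about 1 of 20 groups of normally distributed values. Of 86 groups tested 7 held such a library, where 4.3 would come by chance on that basis. Counts near 0 are skewed, so the expected number is only a rough guide. Cxcl1 was 194.4 normalized counts in CTLD replicate 3, with the next library at 21.05. Cxcl5 was 17.95 in VEHICLE replicate 1 (next 2.776) and 187.7 in CsA28 replicate 1 (next 0.9514). The same CsA28 library held all of that group's Ccl20, 7.767 against 0. Cxcl10 was 88.15 in CsA28 replicate 4 (next 16.83), and Ccl5 was 11.81 in CsA28 replicate 2 (next 4.463). Cxcl13 was 75.74 in DDC7 replicate 3 (next 9.438).

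The following log2 differences between days or models passed limma's test of the difference itself. Between BDL28 and BDL7 they were -4.5207 for Cxcl9, -3.764 for Cxcl10, 2.4622 for Cxcl13 and -1.942 for Ccl20. Between the ligation and DDC effects at day 28 they were -3.5436 for Cxcl10 and 4.1071 for Cxcl13. Between the day changes of the 2 models it was 4.8317 for Cxcl13.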

How the results depend on the processing

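Over all alternatives no call on a single ligand reversed; 2277 values kept their call and direction, 101 lost a call, 38 gained one, and 74 uncalled values changed sign. Of the counts of ligands called higher against control, and of those called in either direction between days or models, these moved by more than 1.5 times. Higher in BDL28 (3) became 5 with edgeR and 6 with DESeq2, and ran from 3 to 5 with single libraries left out. BDL28 against BDL7 (4) became 2 in a fit of its own groups and ran from 2 to 4 with single libraries left out. DDC28 against DDC7 (0) became 1 with edgeR, 1 with DESeq2 and 2 in a fit of its own groups. CsA28 against CsA7 (0) became 1 with DESeq2. The model difference at day 28 (2) became 1 with edgeR, 0 with no filter and 0 in a fit of its own groups, and ran from 0 to 2 with libraries left out. The difference in day change (1) became 0 with no filter, 0 with a filter on a mean of at least 1, 0 in a fit of its own groups and 0 in a fit of the 24 ligation and DDC libraries, an alternative chosen after seeing the data. It ran from 0 to 3 with libraries left out. The count called lower was 2 in BDL28 and became 1 with edgeR, 1 in a fit of its own groups and 1 without SHAM replicate 2 or BDL28 replicate 2. Called lower in DDC28 (2) became 1 with total-count scaling, 1 with no filter and 1 without CTLD replicate 4, DDC28 replicate 3 or DDC28 replicate 4. Called lower in CsA7 (0) became 1 with edgeR and 2 with DESeq2, and called lower in BDL7 (0) became 1 in a fit of its own groups. The cause was not tested. The own-group fits use fewer samples and their own estimate of the spread. With libraries left out the other counts, called higher or called between days or models, were 5 in BDL7, 5 to 6 in DDC7, 4 to 6 in DDC28, and 0 for cyclosporin A, the controls, the day contrasts of DDC and cyclosporin A, and the day 7 difference. A replicate block, which treats equal numbers in the descriptions as paired, ended 1 call, Cxcl1 in DDC7 (adjusted p = 0.0613), so the count there was 6, and changed no other. Total-count scaling moved the median of all genes by 0.326 in BDL7, 0.289 in BDL28, 0.377 in DDC7, 0.386 in DDC28 and 0.131 in CsA7, and 84.2%, 74.3%, 82.2%, 78.5% and 83.3% of called genes were then higher.

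Ccl20, Ccl5, Cxcl2 and Cxcl13 had 120 to 674 reads in all over the 36 libraries, which limits the precision of their values. Fitted folds of genes near 0 in the controls depend on the pseudocount. The 2 days of a model share controls.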

Other observations

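Other cell types of the liver changed beside the ligands. Of 7 sinusoidal endothelial markers 0 rose and 6 fell in BDL28, and 0 rose and 6 fell in DDC28, beside 22.7% and 24.7% of all genes lower. Of 8 Kupffer cell markers, from the resident macrophages of the liver, 5 rose and 0 fell in BDL7 (20.2% and 18.5% of all genes). In BDL28 4 rose and 2 fell against SHAM (24.1% and 22.7%). In DDC7 6 rose and 0 fell (24.7% and 22.1%), and in DDC28 5 and 0 (27.9% and 24.7%). Between BDL7 and BDL28 0 rose and 4 fell (14% and 16.7% of all genes). Among those that fell were Timd4 (58.1 ± 18.4 to 18.0 ± 4.53, SD, n = 4) and Folr2 (95.1 ± 19.8 to 34.8 ± 21.6). Marco, a scavenger receptor, was at 612 ± 175 in BDL7 and 423 ± 82.4 in BDL28 against 16.0 ± 6.73 in SHAM. Of 7 stellate cell and fibroblast markers tested, 5 rose and 0 fell in BDL7 (20.2% and 18.5% of all genes). In BDL28 3 rose and 2 fell against SHAM (24.1% and 22.7%). Between the days of ligation 0 rose and 6 fell (14% and 16.7%), or 3 fell without BDL28 replicate 4. Summed over the list, BDL28 replicate 1 held 1206, within the 649 to 1352 of BDL7. BDL28 replicates 2, 3 and 4 held 192, 338 and 258.3.

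Within BDL28 the libraries differed in kind. Replicate 1 held the highest Cxcl5 (410), Ccl2 (190) and Ccl20 (11.8) of the group and the lowest Cxcl13 (0.98), and replicate 2 held the lowest Cxcl5 (11.9), Ccl2 (27.6) and Ccl6 (390) and the highest Cxcl13 (189).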
